A study of Mus musculus with 8 samples.

Results

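The 41 genes described here encode regulators of chromatin with a known part in heart development, and all 41 were among the 14608 genes of the expression table. They were chosen by name and role, with earlier results of these data known. Their levels came from RNA-seq of the outflow tract (OFT), the vessel that leads blood out of the embryonic heart, in mouse embryos at embryonic day 11.5. There were 8 libraries. Of these, 4 were labelled control and titled WT, with no further genotype, and 4 were labelled Mib1V943F/+ Gata6STOP/+ and titled MUT. These mutants are compound heterozygotes that carry the missense *Mib1* allele V943F and, in trans, the STOP null allele of *Gata6*. Both are germline alleles, so every cell of a mutant embryo carries them. The labels give pools of 3 individuals for each library, whereas the methods of the study give 3 pools per genotype of 4 pairs of OFT, so how many embryos stand behind a library is not known. The p-values therefore measure the spread between these pools. The question of the comparison was how gene expression in the OFT differs between the compound mutant and its controls.

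Chromatin regulators set how tightly DNA is packed around histones and so which genes can be read. COMPASS enzymes methylate lysine 4 of histone H3 at active promoters and enhancers, while the Polycomb complexes PRC2 and PRC1 methylate lysine 27 of histone H3 and ubiquitinate histone H2A at silent developmental genes. The BAF, PBAF and CHD remodellers move nucleosomes with the energy of ATP, acetyltransferases and deacetylases open and close chromatin, and DNMT and TET enzymes add and oxidize methyl groups on DNA. Mutations in several of these genes cause congenital heart disease, among them *KMT2D* in Kabuki syndrome, *CHD7* in CHARGE syndrome and *EP300* and *CREBBP* in Rubinstein-Taybi syndrome.

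Several of the genes come as related pairs that encode the same residues over some stretches with different bases. Since the differences between the groups were ordered by base composition, 3 such pairs, picked after their values were seen, are shown first. Each stretch is the first window of 30 codons in which both genes of the pair encode the same residue at every codon. It is read 5′ to 3′ on the coding strand from the GENCODE vM21 transcripts of GRCm38, and capitals mark the bases that differ between the 2 genes of a pair.
*Rnf2* (chr1:151476913-151477002, minus strand, exon 4): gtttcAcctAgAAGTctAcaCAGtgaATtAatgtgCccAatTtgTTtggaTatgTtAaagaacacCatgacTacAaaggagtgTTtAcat
*Ring1* (chr17:34023334-34023423, minus strand, exon 3): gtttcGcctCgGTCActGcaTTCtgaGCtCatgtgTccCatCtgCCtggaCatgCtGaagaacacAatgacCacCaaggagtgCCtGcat
*Hdac2* (chr10:36985135-36985224, plus strand, exon 2): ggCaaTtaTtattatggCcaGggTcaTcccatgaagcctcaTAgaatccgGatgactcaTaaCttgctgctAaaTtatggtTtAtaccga
*Hdac1* (chr4:129534629-129534718, minus strand, exon 2): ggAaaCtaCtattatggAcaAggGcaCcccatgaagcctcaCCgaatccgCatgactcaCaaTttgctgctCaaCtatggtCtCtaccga
*Kmt2c* (chr5:25284635-25284724, minus strand, exon 52): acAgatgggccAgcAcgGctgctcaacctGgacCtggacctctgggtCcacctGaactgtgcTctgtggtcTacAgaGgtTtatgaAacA
*Kmt2d* (chr15:98839845-98839934, minus strand, exon 49): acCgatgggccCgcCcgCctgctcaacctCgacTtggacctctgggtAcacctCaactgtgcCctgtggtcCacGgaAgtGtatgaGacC

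Of the 90 bases, 27 differed between *Rnf2* and *Ring1*, the E3 ligases of PRC1, and G or C stood at 32 of 90 in *Rnf2* and at 48 of 90 in *Ring1*. Between the deacetylases *Hdac2* and *Hdac1*, 16 bases differed, with G or C at 37 and 44. Between the H3K4 methyltransferases *Kmt2c* and *Kmt2d*, 15 bases differed, with G or C at 50 and 56. In each of these 3 pairs, and in 9 of the 12 pairs compared in all, the gene with fewer G and C bases in the stretch was also the gene with the lower GC content over its whole transcript, at 39.5% against 60.7% for *Rnf2* and *Ring1*, 41.9% against 49.95% for *Hdac2* and *Hdac1*, and 47.6% against 58.4% for *Kmt2c* and *Kmt2d*. The *Hdac2* transcript used encodes 304 residues, against 482 for *Hdac1*. The GC content of *Hdac2* and its level per kilobase rest on that transcript.

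Values for single libraries are given throughout in the order of replicates 1 to 4. The deposited values are CPM, reads of a gene relative to all reads of its library, scaled by the TMM method. The reads on listed genes ran from 10669420 in control replicate 2 to 30469165 in mutant-labelled replicate 3, and 1 read was worth 0.0325 to 0.0948 CPM. *Gata6* RNA, as the check of the labels, was 236, 279, 271 and 261 CPM in the control-labelled and 213, 284, 276 and 224 CPM in the mutant-labelled libraries, so it did not separate the groups (limma adjusted p = 0.752), and the groups are called control-labelled and mutant-labelled. *Mib1* RNA did not separate them either, at 122 ± 15.6 against 128 ± 6.62 CPM (SD, n = 4). For *Gata6*, the study states that quantitative PCR found mRNA at the predicted reduced level in these mutants. The RNA-seq values given here do not show such a reduction, and the reason was not tested. Cardiomyocyte, endocardial, cushion mesenchyme and smooth muscle markers of an OFT were all in the table. The library labelled mutant replicate 2 stood apart from the other 7 libraries for the chromatin regulators and is described after them, so values without it are given beside the differences that it moved by over 1.5 times among those described in full.

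None of the 41 regulators passed the limma test of the groups after adjustment over all genes, where 0% of the 14608 genes had an adjusted p under 0.05 (lowest adjusted p = 0.124). At the same threshold the study reported differentially expressed genes for this contrast from the edgeR count model. That model was not run here, so the 0% holds for limma on the log scale. At an unadjusted p under 0.05, 4 of 41 regulators stood out, beside 12.1% of all genes (1763 of 14608). These were *Bmi1* and *Hdac2*, which were higher in mutant-labelled libraries, and *Kmt2d* and *Kdm6b*, which were lower. Of the 41, 20 were higher and 21 lower in mutant-labelled libraries, with a median log2 fold change of -0.01 beside 0.00 over all genes, and 50.4% of all genes were higher. The log2 fold changes of the regulators ran from -0.22 for *Ring1* to 0.34 for *Bmi1*, and for 39 of 41 the 95% confidence interval lay within 0.5 of zero on the log2 scale. *Hdac2* was the only regulator whose groups did not overlap, beside 7.1% of all genes (3.2% higher and 3.9% lower in mutant-labelled libraries).

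**Figure D1:**
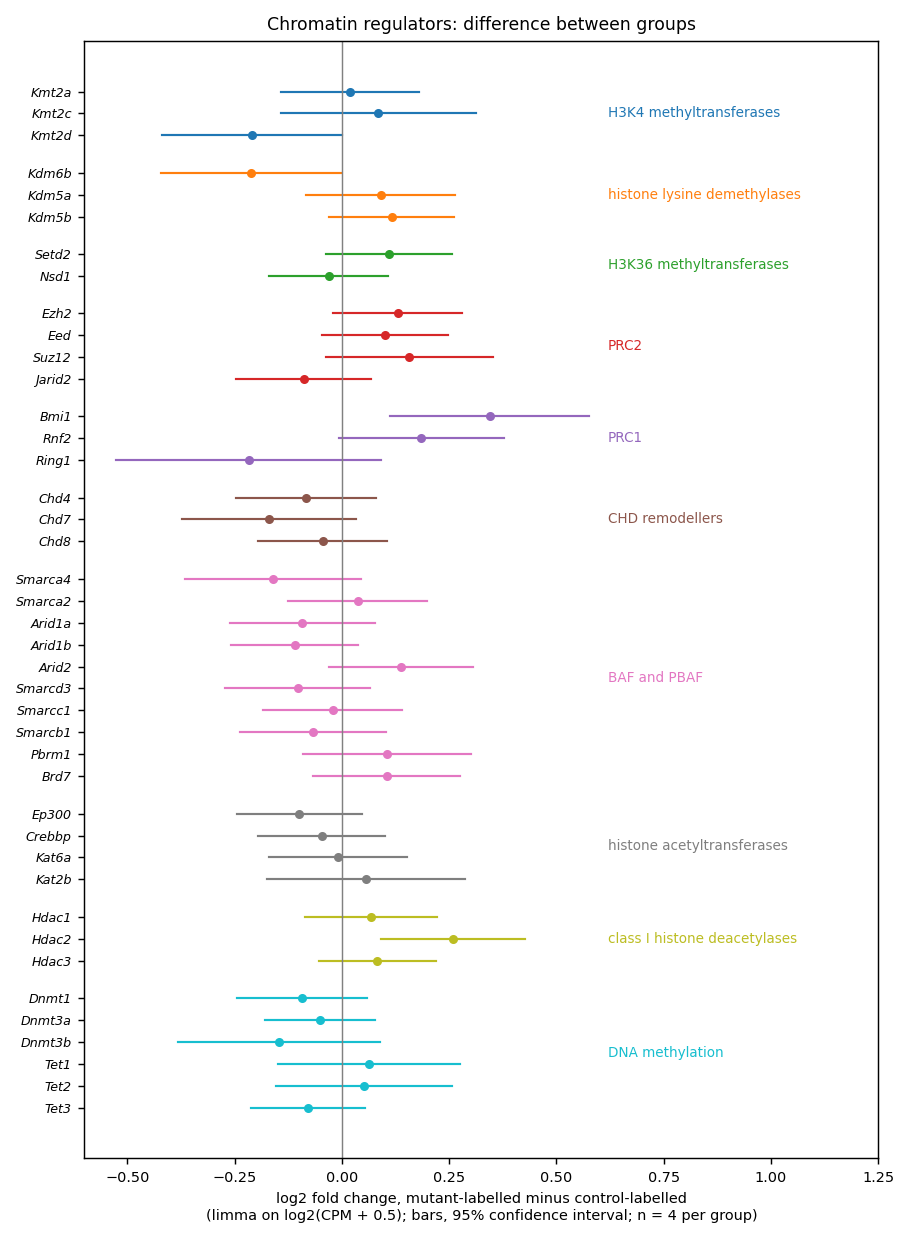
Log2 fold change (x axis, mutant-labelled minus control-labelled, limma on log2(CPM + 0.5)) of each of the 41 chromatin regulators, grouped and coloured by role; points are estimates and bars are 95% confidence intervals from 4 libraries per group. The intervals of *Bmi1* and *Hdac2* lie wholly above zero, those of *Kmt2d* and *Kdm6b* end just below it, and the rest cross it.

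Per kilobase of the longest coding transcript, the median level of the regulators was 16.9 CPM, against 8.28 CPM over all genes, and 31 of 41 were above the latter. *Chd4*, the ATPase of the NuRD complex, had the highest level per kilobase with 93.3 CPM, followed by *Hdac1* (70.6), *Smarcd3* (69.2), *Smarcb1* (60.7), *Hdac2* (60.1) and *Smarca4* (54.0). This order depends on the length used. The transcripts of *Smarcd3* and *Smarcb1* have 1735 and 1660 bases, where all annotated exons of these genes cover 5120 and 7930. For *Smarca4* the lengths are 6376 and 6475 bases. The lowest levels per kilobase were those of *Tet1* with 2.35 CPM and *Dnmt3b*, a de novo DNA methyltransferase, with 3.01 CPM. *Dnmt3a*, the other de novo enzyme, had 34.8 CPM per kilobase, and *Dnmt1*, which copies methylation after replication, had 43.2. In reads, a regulator had between 155 and 19449 per library, so counting error was at most 8.03% of a value. The coefficient of variation between replicates ran from 1.84% to 16.1% in control-labelled and from 1.98% to 17.96% in mutant-labelled libraries and was larger in mutant-labelled libraries for 28 of 41 regulators.

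Among the H3K4 methyltransferases, *Kmt2d* (ENSMUSG00000048154, chromosome 15, 98831669 to 98871204) has a leading part at enhancers of the developing heart. Its RNA was 152, 166, 174 and 141 CPM in controls and 141, 113, 149.7 and 145 CPM in mutant-labelled libraries. Mutant-labelled replicate 2 was the lowest of the 8 libraries, and the other 3 mutant-labelled libraries lay inside the control range or at its lower edge. On the log2 scale this gave -0.21 ± 0.10 (SE; adjusted p = 0.414, and 0.283 to 0.820 over 20 alternatives). It was -0.12 without mutant-labelled replicate 2 and -0.10 without that library and control replicate 2 together. *Kmt2c*, which acts in the same kind of complex, had 71.3 ± 6.53 and 76.0 ± 12.1 CPM (SD, n = 4), and *Kmt2a*, the founding member of the family, had 106 ± 5.02 and 108 ± 8.97 CPM.

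*Kdm6b* (ENSMUSG00000018476, chromosome 11, 69398508 to 69413675) removes methyl groups from lysine 27 of histone H3 and so opposes PRC2. Controls had 129.98, 152, 137 and 130.2 CPM, and mutant-labelled libraries had 121, 97.1, 135 and 124 CPM. As for *Kmt2d*, mutant-labelled replicate 2 was the lowest and the groups overlapped through mutant-labelled replicate 3. The log2 difference was -0.21 ± 0.10 (SE; adjusted p = 0.413, and 0.340 to 0.844 over the alternatives), and it was -0.12 without mutant-labelled replicate 2 and -0.07 without both libraries numbered 2. An antisense gene, *Kdm6bos*, overlaps *Kdm6b* and is not in the table. The H3K4 demethylases *Kdm5a* and *Kdm5b* had log2 fold changes of 0.09 and 0.12, with adjusted p = 0.644 and 0.492.

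The H3K36 methyltransferases mark the bodies of transcribed genes. *Setd2*, which adds the trimethyl mark, had 125, 107, 112 and 118 CPM in controls and 119, 130.2, 122 and 127 CPM in mutant-labelled libraries. The groups overlapped through control replicate 1, and the log2 difference of 0.11 ± 0.07 (SE) did not pass the test (adjusted p = 0.514). *Nsd1*, mutated in Sotos syndrome, had 224 ± 14.1 and 219 ± 6.83 CPM, a log2 difference of -0.03.

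In PRC2, the catalytic subunit *Ezh2* had 106, 93.5, 101 and 114 CPM in controls and 109.6, 115, 113 and 116 CPM in mutant-labelled libraries. The mutant-labelled libraries lay close together at the upper edge of the wider control range. This gave a log2 difference of 0.13 ± 0.07 (SE; adjusted p = 0.460). The core partners *Eed*, which reads the mark, and *Suz12*, the scaffold, had log2 differences of 0.10 and 0.16, and *Jarid2*, which helps to recruit the complex, had -0.09. None of the 4 passed the test, and their adjusted p ran from 0.460 to 0.612.

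PRC1 held both ends of the range of differences. *Bmi1* (ENSMUSG00000026739, chromosome 2, 18677018 to 18686629), a RING finger subunit that stimulates the ligase, had 34.0, 25.98, 29.0 and 34.8 CPM in controls and 41.6, 43.5, 37.4 and 34.7 CPM in mutant-labelled libraries. Mutant-labelled replicate 4 was level with control replicate 4, and the other mutant-labelled libraries were above all controls. Mutant-labelled replicate 2 was the highest library and control replicate 2 the lowest. The means were 30.9 ± 4.19 and 39.3 ± 3.96 CPM (SD, n = 4), a ratio of 1.27 on the scale with the added 0.5 CPM, and the log2 difference was 0.34 ± 0.11 (SE; unadjusted p = 0.00722, adjusted p = 0.284, and 0.188 to 0.588 over the alternatives). The exact two-sided permutation test over the 70 relabellings gave p = 0.0571, where the smallest it can give is 0.0286. Without mutant-labelled replicate 2 the log2 difference was 0.29, and without both libraries numbered 2 it was 0.22.

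The ligases of PRC1 lay in opposite directions. *Rnf2* had 99.1, 85.1, 88.3 and 103 CPM in controls and 102, 124, 100.1 and 101 CPM in mutant-labelled libraries, and *Ring1* had 19.3, 28.4, 23.7 and 22.7 against 22.0, 15.5, 23.9 and 19.5 CPM. Mutant-labelled replicate 2 was the highest library for *Rnf2* and the lowest for *Ring1*, and control replicate 2 was the lowest for *Rnf2* and the highest for *Ring1*. The log2 differences were 0.19 ± 0.09 (SE; adjusted p = 0.428) and -0.22 ± 0.14 (SE; adjusted p = 0.540). Without mutant-labelled replicate 2 they were 0.11 and -0.10, and without both libraries numbered 2 they were 0.07 and -0.003.

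All 3 CHD remodellers were lower in mutant-labelled libraries, and none passed the test. *Chd7*, which remodels nucleosomes at enhancers of neural crest and heart, had 119, 94.5, 93.7 and 97.9 CPM in controls and 96.9, 78.2, 88.0 and 96.2 CPM in mutant-labelled libraries. Control replicate 1 was the highest library by a wide margin and mutant-labelled replicate 2 the lowest. Its log2 difference was -0.17 ± 0.09 (SE; adjusted p = 0.472), with -0.10 without mutant-labelled replicate 2 and -0.09 without control replicate 1. For *Chd4* and *Chd8*, a remodeller linked to WNT targets, the log2 differences were -0.08 and -0.04, or -0.02 and 0.02 without mutant-labelled replicate 2, and the remaining mutant-labelled values of *Chd4* (629 to 638 CPM) lay inside the control range of 623 to 678 CPM.

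Of the 10 BAF and PBAF subunits, 4 were higher and 6 lower, and their adjusted p ran from 0.482 to 0.917. *Arid2*, a subunit particular to PBAF, had 122, 107, 118 and 118 CPM in controls and 120.4, 147, 125 and 120.4 CPM in mutant-labelled libraries. Mutant-labelled replicate 2 was the highest library, and the others lay near the upper control values, which gave a log2 difference of 0.14 ± 0.08 (SE; adjusted p = 0.482), with 0.07 without mutant-labelled replicate 2 and 0.03 without both libraries numbered 2. The other PBAF subunits, *Pbrm1* and *Brd7*, had log2 differences of 0.11 and 0.10. *Smarca4* (BRG1), the main ATPase, had 354, 385, 367 and 343 CPM in controls and 349, 261, 347 and 347 CPM in mutant-labelled libraries, a log2 difference of -0.16 ± 0.09 (SE; adjusted p = 0.5001). Of its mutant-labelled libraries only replicate 2 was below the controls, and without it the log2 difference was -0.06. *Smarcd3* (BAF60C), the subunit known for its role in the heart, had 124 ± 9.71 and 116 ± 9.04 CPM, and the DNA-binding subunits *Arid1a* and *Arid1b* had log2 differences of -0.09 and -0.11. For the ATPase *Smarca2* and the core subunits *Smarcc1* and *Smarcb1* the differences lay between -0.07 and 0.04.

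Of the 4 histone acetyltransferases, 3 were lower and 1 was higher, and none passed the test. *Ep300*, a coactivator at enhancers, had 126, 119, 119 and 118 CPM in controls and 111, 105, 125 and 110.3 CPM in mutant-labelled libraries. Mutant-labelled replicate 3 was within the control range and the other mutant-labelled libraries were below it, for a log2 difference of -0.10 ± 0.07 (SE; adjusted p = 0.550). Its paralogue *Crebbp* had -0.05, *Kat6a* -0.01 and *Kat2b* 0.06, with adjusted p between 0.789 and 0.966.

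All 3 class I deacetylases were higher in mutant-labelled libraries, and none passed the test over all genes. *Hdac2* (ENSMUSG00000019777, chromosome 10, 36974544 to 37001889), whose loss in mice disturbs cardiac growth, had 178, 162, 178 and 193 CPM in controls and 205, 241, 203 and 204 CPM in mutant-labelled libraries. Every mutant-labelled library was above every control-labelled library, and mutant-labelled replicate 2 was the highest. The means were 178 ± 12.7 and 213 ± 18.5 CPM (SD, n = 4). The log2 difference was 0.26 ± 0.08 (SE; unadjusted p = 0.00571, adjusted p = 0.270, and 0.182 to 0.554 over the alternatives), with p = 0.0286 in the exact permutation test, the smallest it can give. *Hdac1* and *Hdac3* had log2 differences of 0.07 and 0.08 with adjusted p = 0.705 and 0.589.

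No enzyme of DNA methylation passed the test. *Dnmt3b* had 12.9, 14.7, 13.1 and 14.03 CPM in controls and 12.9, 10.1, 13.1 and 13.3 CPM in mutant-labelled libraries. Only mutant-labelled replicate 2 lay clearly below the control values. The log2 difference was -0.15 ± 0.11 (SE; adjusted p = 0.579), with -0.06 without mutant-labelled replicate 2 and -0.02 without both libraries numbered 2. *Dnmt1*, *Dnmt3a* and *Tet3* were lower by -0.09, -0.05 and -0.08, and *Tet1* and *Tet2* higher by 0.06 and 0.05, all on the log2 scale.

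**Figure D2:**
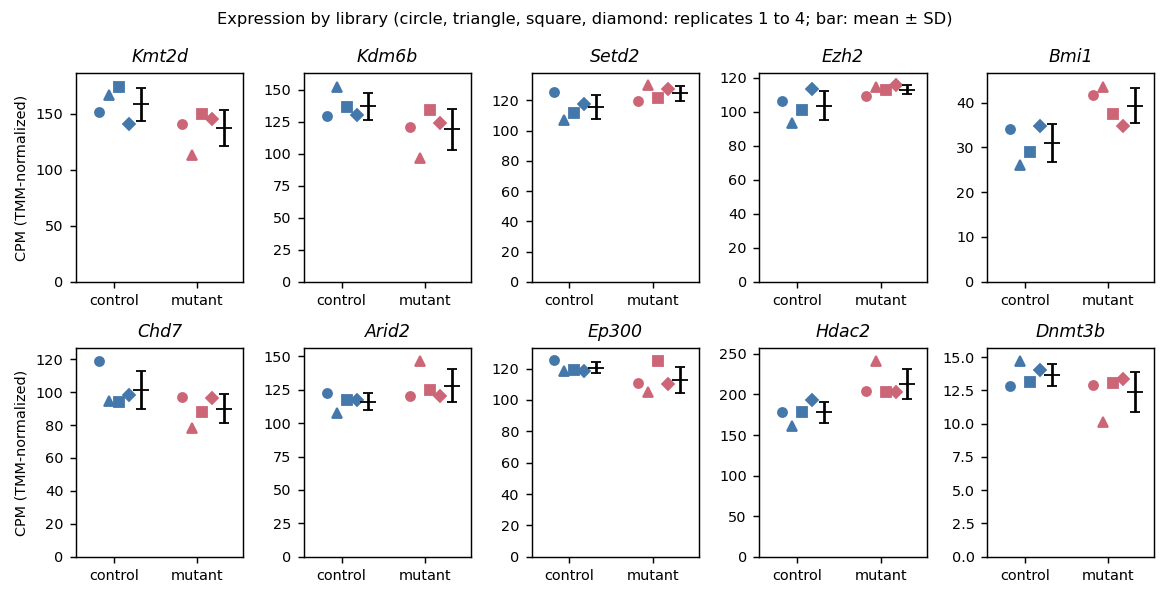
Expression (y axis, TMM-normalized CPM, from 0) of 10 chromatin regulators in each library, with control-labelled libraries in blue and mutant-labelled libraries in red; symbols stand for replicates 1 to 4 and black bars for the mean ± SD. For *Hdac2* the groups do not overlap. The triangle of mutant-labelled replicate 2 is the highest value for *Setd2* (130.2 CPM), *Bmi1* (43.5), *Arid2* (147) and *Hdac2* (241). It is the lowest for *Kmt2d* (113 CPM), *Kdm6b* (97.1), *Chd7* (78.2), *Ep300* (105) and *Dnmt3b* (10.1), and only for *Ezh2* is it neither.

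The libraries did not contribute evenly to these differences. Of the 8 libraries, mutant-labelled replicate 2 was the lowest for 22 of 41 regulators and the highest for 14, and control replicate 2 was the lowest for 15. The summed level of the 41 was 5236 CPM in mutant-labelled replicate 2 and 5474 to 5788 CPM in the others. A library's deviation from the mean of each gene could be set against GC content over all genes: per 10 percentage points of GC it changed by 0.22 log2 units in control replicate 2, 0.11 in control replicate 3, -0.18 in mutant-labelled replicate 2 and between -0.05 and 0.02 in the other 5. The same split ran through the regulators. Those under the median GC content of all genes, which was 49.9%, deviated by a median of 0.17 in mutant-labelled replicate 2 and -0.18 in control replicate 2, and those at or above it by -0.21 and 0.06.

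**Figure D3:**
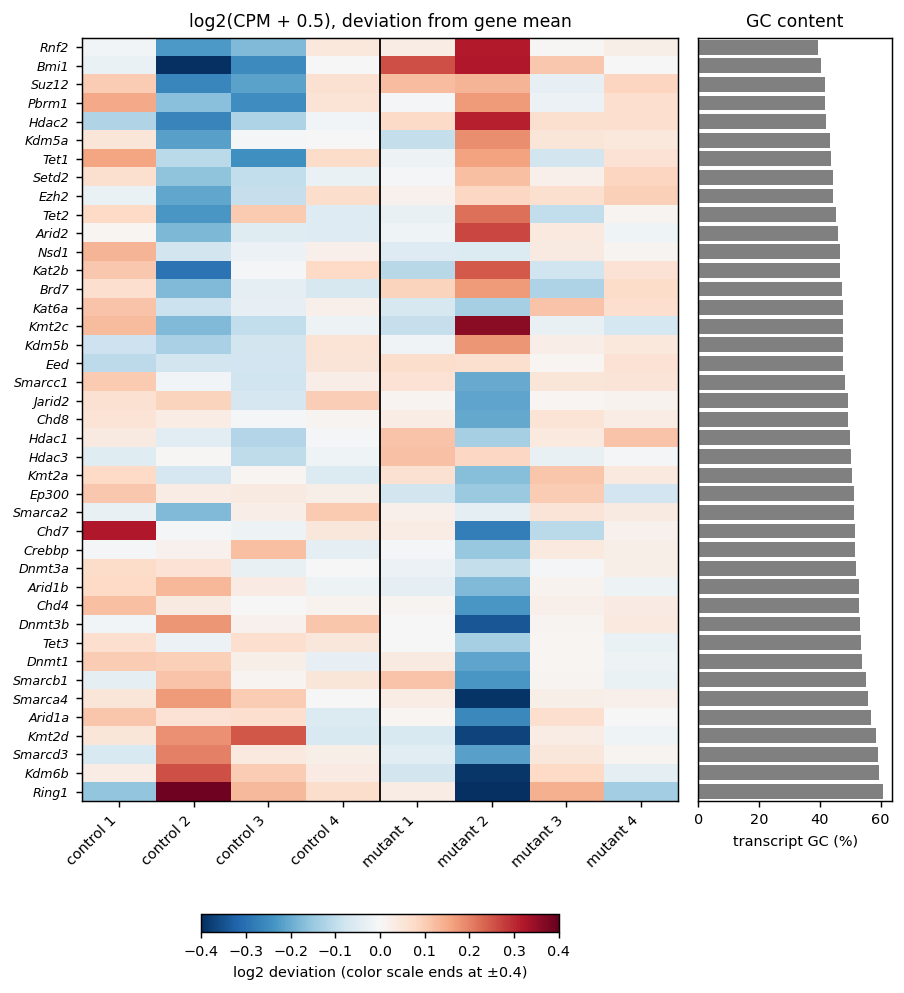
Deviation of log2(CPM + 0.5) from the mean of each gene (color, log2 units, ending at ±0.4) for the 41 chromatin regulators (rows, by rising transcript GC content, shown at right in percent) in the 8 libraries (columns). Mutant-labelled replicate 2 passes from high values in the GC-poor rows to low values in the GC-rich rows, and control replicate 2 the other way.

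Transcript GC content, which ran from 39.5% in *Rnf2* to 60.7% in *Ring1*, ordered the differences between the groups. Across the 41 regulators, log2 fold change and GC content had r = -0.88 and rho = -0.88. The points share libraries and are not independent, so this is a description. Over 14594 annotated genes of the table the values were r = -0.38 and rho = -0.46, and over 164 other chromatin genes r = -0.61 and rho = -0.65. Of the 21 regulators under the median GC content, 16 were higher in mutant-labelled libraries, with a median log2 fold change of 0.10, and of the 20 at or above it 4 were higher, with a median of -0.09. In 5 bins of all genes from low to high GC, the regulators higher in mutant-labelled libraries were 7 of 7, 9 of 11, 4 of 10, 0 of 7 and 0 of 6, beside 80.9%, 65.6%, 49.5%, 34.1% and 21.8% of all genes.

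By stretch of the transcript, the relation was with the coding sequence (r = -0.85), the third base of each codon (r = -0.71) and the 3′ UTR (r = -0.54), while GC content of the 5′ UTR had r = 0.17 (n = 40). For promoters, taken as RefSeq gives them for GRCm38.p6 in windows around the start of each gene, 33 of 41 regulators matched and GC content had r = -0.12. Transcript length had r = -0.21. Without mutant-labelled replicate 2, r with transcript GC content was -0.76, without control replicate 2 it was -0.79, and without both it was -0.48, beside -0.09 over all genes.

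When the trend of each library with GC content was removed over all genes, the differences of the regulators became smaller. Their median absolute log2 difference went from 0.09 to 0.05, and over all genes from 0.11 to 0.08. *Bmi1* had 0.21 (unadjusted p = 0.0112) and *Hdac2* 0.15 (unadjusted p = 0.00981), and they were the only regulators of 41 with an unadjusted p under 0.05, beside 11.2% of all genes. *Kmt2d* and *Kdm6b* then had log2 differences of -0.11 and -0.10, with unadjusted p = 0.107 and 0.109. *Chd7*, with a GC content near the median, had -0.15 in place of -0.17. A relation with GC content remained among the 41, at r = -0.58, while r was -0.04 over the 164 other chromatin genes and 0.02 over all genes. With both libraries numbered 2 left out in place of the correction, *Bmi1* had 0.22 and *Hdac2* 0.15, again the only regulators with an unadjusted p under 0.05, beside 8.1% of all genes.

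**Figure D4:**
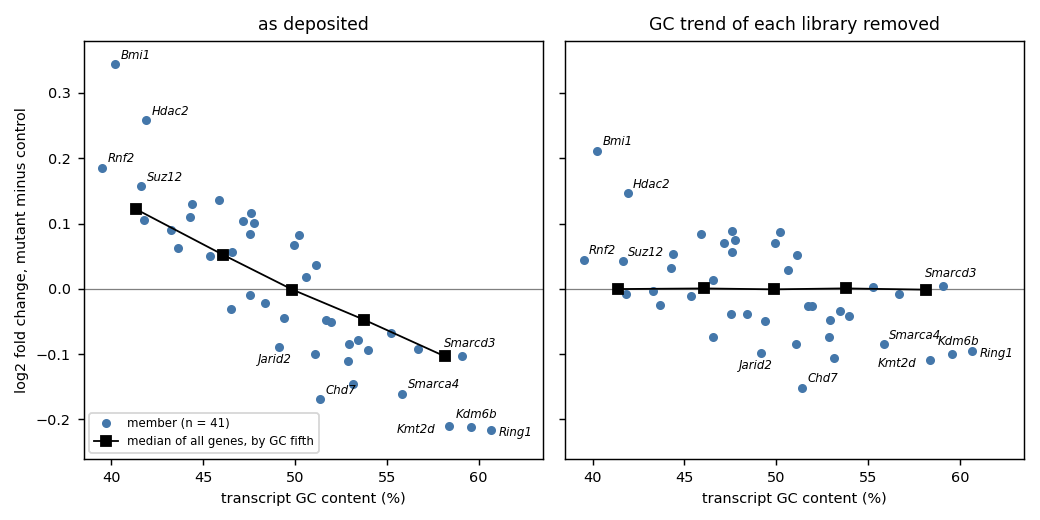
Log2 fold change (y axis, mutant-labelled minus control-labelled) of each of the 41 chromatin regulators (blue points) against the GC content of its transcript (x axis, percent), from the values as deposited (left) and with the GC trend of each library removed (right); black squares are medians of all genes in 5 bins of GC content. *Bmi1* and *Hdac2* lie above the black line in both panels, and *Kmt2d*, *Kdm6b* and *Ring1* at the right end lie at about -0.2 on the left and -0.1 on the right.

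Ratios of related regulators within a library do not depend on how that library was scaled. Over 12 pairs, none reached a p under 0.05 in the exact two-sided permutation test of the groups (smallest p = 0.171, 0.490 after Benjamini-Hochberg adjustment over the 12), and in all 12 the groups overlapped. The widest difference was that of *Rnf2* to *Ring1*, with ratios of CPM of 5.14, 2.99, 3.73 and 4.53 in controls and 4.62, 8.03, 4.19 and 5.19 in mutant-labelled libraries. Mutant-labelled replicate 2 was far above the control range, mutant-labelled replicate 4 was just above it, and control replicate 2 was the lowest. The log2 difference was 0.41, with 0.21 without mutant-labelled replicate 2 and 0.07 without both libraries numbered 2.

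For *Kmt2c* to *Kmt2d* the ratio was 0.527, 0.389, 0.392 and 0.514 in controls and 0.489, 0.831, 0.479 and 0.481 in mutant-labelled libraries. Only mutant-labelled replicate 2 left the control range, and the log2 difference was 0.30, or 0.10 without that library and 0.03 without both libraries numbered 2. *Hdac2* to *Hdac1* had a ratio of 1.27 ± 0.0950 in control-labelled and 1.46 ± 0.254 in mutant-labelled libraries (SD, n = 4), and *Smarca2* to *Smarca4* 0.129 ± 0.0164 and 0.148 ± 0.0188. Without mutant-labelled replicate 2 their log2 differences went from 0.19 to 0.08 and from 0.20 to 0.11. When control replicate 4 was left out, the ratio of *Smarca2* to *Smarca4* had a log2 difference of 0.27, with p = 0.0286 in the exact permutation test. That is the smallest p the test can give there, and it was not adjusted for the 12 ratios or the libraries left out in turn. Over all libraries left out in turn the difference ran from 0.11 to 0.27. The remaining pairs (*Arid1b* to *Arid1a*, *Crebbp* to *Ep300*, *Kdm5b* to *Kdm5a*, *Dnmt3b* to *Dnmt3a*, *Tet2* to *Tet3*, *Chd7* to *Chd8*, *Ezh1* to *Ezh2* and *Smarcd1* to *Smarcd3*) had log2 differences between -0.13 and 0.13. Across the 12 pairs, the difference of the log2 ratio and the difference in GC content had r = -0.90 and rho = -0.89, and their signs were opposite in 9 of 12; the pairs share libraries, so this too is a description.

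**Figure D5:**
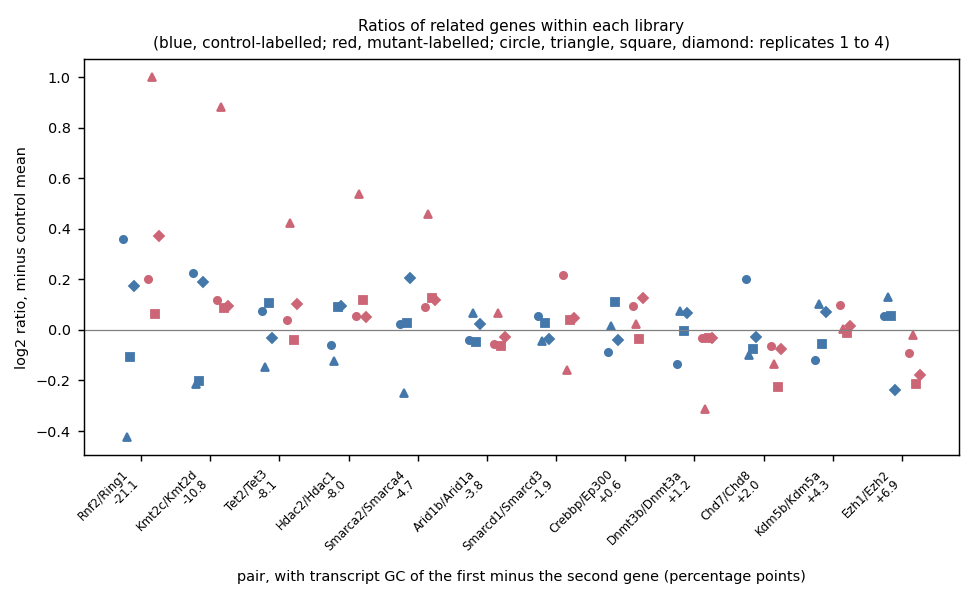
Log2 ratio of the CPM of 2 related genes in each library, minus the mean of the control-labelled libraries (y axis), for 12 pairs ordered by the GC content of the first gene minus that of the second (x axis labels, percentage points); blue is control-labelled, red is mutant-labelled and symbols stand for replicates 1 to 4. The triangle of mutant-labelled replicate 2 stands above the other libraries in the pairs at the left end, where *Rnf2* to *Ring1* has a GC difference of -21.1 points.

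Further genes of the same complexes and families were read from the same fit. Of 168 such genes, 164 were in the table, 72 were higher and 92 lower, and none passed the test over all genes in limma. At an unadjusted p under 0.05, 5 were higher and 6 lower, beside 5.45% and 6.62% of all genes. The higher ones were *Mecom* (log2 difference 0.27) among the methyltransferases, *Smarca1* (0.27) among the ISWI remodellers, the deacetylase *Sirt1* (0.27), and *Uhrf2* (0.16) and *Zbtb33* (0.20) among the readers of methylated DNA. Among the lower ones were the demethylase *Kdm4b* (-0.21), the methyltransferases *Dot1l* (-0.20) and *Smyd2* (-0.24), the NuRD subunit *Gatad2a* (-0.19) and the class IIa deacetylase *Hdac5* (-0.22). The 5 higher genes had transcript GC contents of 39.2% to 47.2% and the 6 lower genes of 54.1% to 58.8%.

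By complex, none of the further lists had a regulator past the test. Among the other subunits of BAF and PBAF 9 of 19 were higher, of PRC2 4 of 8, of PRC1 7 of 19 and of COMPASS 7 of 15. Of the other demethylases 6 of 13 were higher, of the methyltransferases 9 of 25, of the NuRD, CHD and ISWI genes 13 of 25, of the acetyltransferases and BET genes 4 of 15, of the deacetylases and corepressors 6 of 16, and of the genes of DNA methylation 7 of 9. The median log2 difference over all 164 was -0.01.

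Markers of heart muscle cells were lower in mutant-labelled libraries. With a median GC content of 55.4%, they had a median log2 difference of -0.35, or -0.28 with the GC trend removed. The summed level of 15 cardiomyocyte markers was 28732 to 33705 CPM in control-labelled and 22949 to 27032 CPM in mutant-labelled libraries. At an unadjusted p under 0.05 in limma, 14 of 15 were lower, beside 6.62% of all genes. For 12 the groups did not overlap and the mutant-labelled values were lower, beside 3.9% of all genes. The summed level of 6 second heart field markers was 313 to 348 CPM against 361 to 474 CPM, with 3 of 6 higher at an unadjusted p under 0.05, beside 5.45% of all genes. *Sema3c* made up the largest part of this sum, at 171 to 185 CPM in control-labelled and 166 to 293 CPM in mutant-labelled libraries (limma unadjusted p = 0.0731). With a median GC content of 44.9%, the second heart field markers had a median log2 difference of 0.31, or 0.21 with the GC trend removed. For 16 proliferation genes the sums were 2728 to 2840 and 2735 to 3084 CPM, with 11 of 16 higher, of which 1 had an unadjusted p under 0.05, beside 5.45% of all genes. In whole tissue, fewer cells of a type and less RNA per cell cannot be told apart, and the part of these markers in the differences of *Bmi1*, *Hdac2*, *Kmt2d* and *Kdm6b* was not tested. Some markers are not among the listed genes, such as *Foxd3* and *Tfap2b* of neural crest, *Fgf8* and *Hoxb1* of the second heart field, and *Epcam*, *Cdh1*, *Foxa2*, *Shh* and *Pax9* of pharyngeal epithelium.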

How the data were processed

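RNA-seq was measured in 8 OFT libraries, 4 control-labelled and 4 mutant-labelled, as the sample labels give them. Polyadenylated RNA was made into stranded libraries, and per the submitters' processing notes and the methods of the study the authors trimmed adapters with cutadapt, estimated expression with RSEM on GRCm38 with Ensembl genes, removed genes with low CPM and scaled by the TMM method of edgeR. The table deposited by the authors holds CPM, 1 column for each library (0 columns unused). Estimated expression shares reads between near-identical genes, which can blur paralogues, and no molecular identifiers are named in the sources used here, so counting error is a lower limit of the technical error.

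From the CPM, log2(CPM + 0.5) was fitted over all 14608 genes in limma 3.58.1 (R 4.3.3; lmFit, then eBayes with its trend option). Tests were two-sided at an adjusted p of 0.05 (Benjamini-Hochberg). Single genes and ratios were also tested by an exact permutation of the 70 relabellings. No further filter was used, so all 41 genes entered. The code was tested on simulated data. Transcript lengths and GC content came from the longest coding transcript in GENCODE vM21, and the coordinates of a gene are those of its whole annotated span there. The GC trend of each library was a loess curve of its deviations with a span of 0.3. The reads per library were read from the spacing of the values, which were whole multiples of 1 read within 0.001 reads. A count model planned on such reads was not run, so all tests are on the log scale, and the spacing was used for depth alone.

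Named in full were the regulators with an unadjusted p under 0.05 and, in each role of the 10 that held none of these, the one with the smallest p; of the other chromatin lists, up to 3 per list with an unadjusted p under 0.05; and *Gata6* and *Mib1*. A few genes that this rule or the marker lists name are not reported here. The 41 genes and the lists were chosen with earlier results of these data known. Alternatives changed the pseudocount, scaling, filter, variance trend, library weights, GC or length trend, the replicate block and each library in turn. Leaving out both libraries numbered 2 was added after seeing the data.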

Additional observations from a re-analysis of the deposited data

Results flagged for a closer look

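In 10 of 86 groups of 4 libraries, over the 41 regulators with *Gata6* and *Mib1*, 1 library lay further from the rest than the 95% limit for a gap in 4 values; chance gives about 1 in 20, or 4.3 groups. Of these, 9 were mutant-labelled replicate 2. It was below the other mutant-labelled libraries for *Jarid2* (82.8 CPM, the others 96.6 to 96.9), *Chd4* (531, the others 629 to 638), *Chd8* (129.9, the others 153 to 156), *Smarca4* (261, the others 347 to 349), *Smarcc1* (208, the others 248 to 249) and *Dnmt3b* (10.1, the others 12.9 to 13.3). It was above them for *Kmt2c* (94.1 CPM, the others 68.7 to 71.6), *Rnf2* (124, the others 100.1 to 102) and *Hdac2* (241, the others 203 to 205). The last was *Ep300* in control replicate 1, at 126 CPM where the other controls had 118 to 119. For *Smarca4*, *Rnf2* and *Kmt2c*, the values of the other 3 mutant-labelled libraries lay inside the control range, while for *Hdac2* they lay above it.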

How the results depend on the processing

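No regulator passed the threshold over all genes under any of 20 alternatives, and *Bmi1* and *Hdac2* had an unadjusted p under 0.05 and the same direction in each. Over all genes, 2 passed with library weights (weights 0.308 for mutant-labelled and 0.518 for control replicate 2), and 0 in every other fit, with 1121 to 2163 genes at an unadjusted p under 0.05 when 1 library was left out. The regulators with an unadjusted p under 0.05 were 2 in place of 4 with the GC trend removed (beside 11.2% of all genes), with library weights (10.8%) and without a variance trend (10.9%). They were also 2 with a mean of at least 5 CPM (beside 13% of the genes kept), with the replicate block (8.93%) and without both libraries numbered 2 (8.1%). When 1 library was left out they were 2 to 5, beside 7.67% to 14.8% of all genes. Where 2 were left, which was also so without control replicate 2 or 3 or mutant-labelled replicate 1 or 2, *Kmt2d* and *Kdm6b* were the 2 lost. Both were lost and others came in with quantile normalization (*Rnf2*) and with the GC trend removed in the replicate block (*Chd7*). *Kmt2d* alone was lost with a pseudocount of 0.1, with upper-quartile scaling, with the length trend removed (*Chd7* came in) and without control replicate 1 (*Suz12* came in), and *Kdm6b* alone without mutant-labelled replicate 4. Without control replicate 4, *Kdm6b* was lost and *Ezh2* and *Rnf2* came in, and without mutant-labelled replicate 3 *Ep300* came in. The other chromatin genes numbered 7 of 164 in place of 11 with library weights and without a variance trend. They numbered 2 without both libraries numbered 2 and 13 with the GC trend removed, beside the shares of all genes given above. When 1 library was left out they numbered 4 to 17. There were 4 without control replicate 2 or 3 (beside 7.67% and 8.02% of all genes), 6 without mutant-labelled replicate 2 (9.1%) and 17 without control replicate 4 (14.8%). *Gata6* turned from -0.08 to 0.0033 on the log2 scale with the GC trend removed, with or without the replicate block, and *Mib1* from 0.07 to -0.020, and to -0.021 without both libraries numbered 2. Of the ratios, *Tet2* to *Tet3* turned to -0.016 without both libraries numbered 2; when 1 library was left out, 0 to 1 of 12 had p under 0.05, *Arid1b* to *Arid1a* ran from -0.048 to 0.0027, *Kdm5b* to *Kdm5a* from -0.015 to 0.060 and *Smarcd1* to *Smarcd3* from -0.024 to 0.10. The cause was not tested. The values do not show a pairing by replicate number: same-numbered libraries had correlations of 0.03, -0.19, 0.03 and -0.05, and no library correlated best with its own number. The replicate block lowered the genes with an unadjusted p under 0.05 from 1763 to 1304. The labels do not say whether same-numbered libraries belong together, and correlations of expression cannot settle it. The planned edgeR and DESeq2 fits on whole reads were not run.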
